A study of Mus musculus with 6 samples.

Results

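The 9 genes described here mark or specify bipolar cells of the retina, and they were taken as every probe set on the array whose annotated gene symbol was Prkca, Pcp2, Car8, Bhlhe23, Cabp5, Isl1, Vsx1, Tacr3 or Irx6. They are 9 of 18193 genes named by the array, represented by 20 of the 45037 probe sets that are not controls, 1 to 3 for each gene. Retinas came from adult Onecut2 knockout mice (OC2-KO, 3 arrays) and from their wildtype littermates (OC2-WT, 3 arrays), and total RNA of each was hybridised to an Affymetrix mouse genome array. OC2-KO mice carry null alleles of Onecut2, a cut-domain and homeodomain transcription factor of horizontal cells, and no other allele, agent, strain or exact age is given in the labels. Many OC2-KO animals die early in life, so that adult retinas come from survivors. The comparison asks whether bipolar cell transcripts differ in the mature retina that formed without this factor. Whether every array is an animal of its own is not stated, and the p-values therefore cover only the array-to-array spread, part of which may be technical.

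Bipolar cells are the interneurons that carry photoreceptor signals to the inner retina. Rod bipolar cells and ON cone bipolar cells depolarise to light through the metabotropic glutamate receptor mGluR6, while OFF cone bipolar cells use ionotropic glutamate receptors and hyperpolarise. Each type is told apart by a small set of transcription factors, calcium-binding proteins and signalling proteins, and the members are ordered here by those types. Cabp5 and Isl1 are set apart. Cabp5 is shared by ON and OFF types, and Isl1, a factor of ON types, is also made outside bipolar cells. In array values of whole retina, fewer cells of a type and less RNA per cell cannot be told apart. By antibody staining, cell counts and in situ hybridisation, the study saw no significant change of bipolar cells in adult OC2-KO retinas. From these arrays it reported Pcp2 and Car8 as lower, and it proposes that bipolar cells may be subtly affected.

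Array values are log2 of the deposited intensities, and probe sets entered the tests if OC2-KO or OC2-WT averaged above 7. The filter kept 16 of the 20 member probe sets, all 16 with a mean above 7 in both genotypes, and left 8 of 9 genes with at least 1, Bhlhe23 being the exception. All Onecut2 probe sets were higher in OC2-KO, by 2.27 to 2.84 on the log2 scale, but the study places them at the 3′ end of the gene, so they do not check the labels. Markers of retina were present: all 6 rod and all 7 cone genes with a probe set of their own passed the filter. The 3′ minus 5′ log2 difference of Actb, a measure of RNA integrity, was 3.39 and 2.95 in the OC2-KO and OC2-WT arrays numbered 3, and lay between 0.71 and 1.41 on the other 4 arrays. OC2-KO and OC2-WT arrays of equal number deviated together and are treated as pairs 1 to 3.

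No member passed adjustment for multiple testing, and no probe set of the array did (limma with Benjamini-Hochberg adjustment, 0% of 21176), where 209 probe sets or 0.987% had an unadjusted p under 0.05. In direction, 15 of the 16 kept member probe sets had a lower mean in OC2-KO, against 51.9% of all probe sets. Their median log2 difference was -0.30, against -0.0084 over all 21176 probe sets, with a lowest value of -0.73 and a highest of 0.23. The difference was below 0 in 15, 14 and 13 of the 16 in pairs 1, 2 and 3, and the median was -0.47, -0.35 and -0.17 in these pairs. It was lower in 3 of 3 pairs for 11 of the 16, against 12.4% of all probe sets, and the genotypes did not overlap for 3, against 1.56% that were lower without overlap. The 3 without overlap were Pcp2 1419084_a_at, Car8 1427482_a_at and Prkca 1450945_at. Probe sets of the same gene and genes of the same cells share their arrays and are not independent counts. Probe sets of Pcp2 and Car8, which the study picked from these arrays as lower, are among the 16 and among the 3 without overlap. Without OC2-KO replicate 1 the median was -0.18, and without pair 3 it was -0.34.

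**Figure D1:**
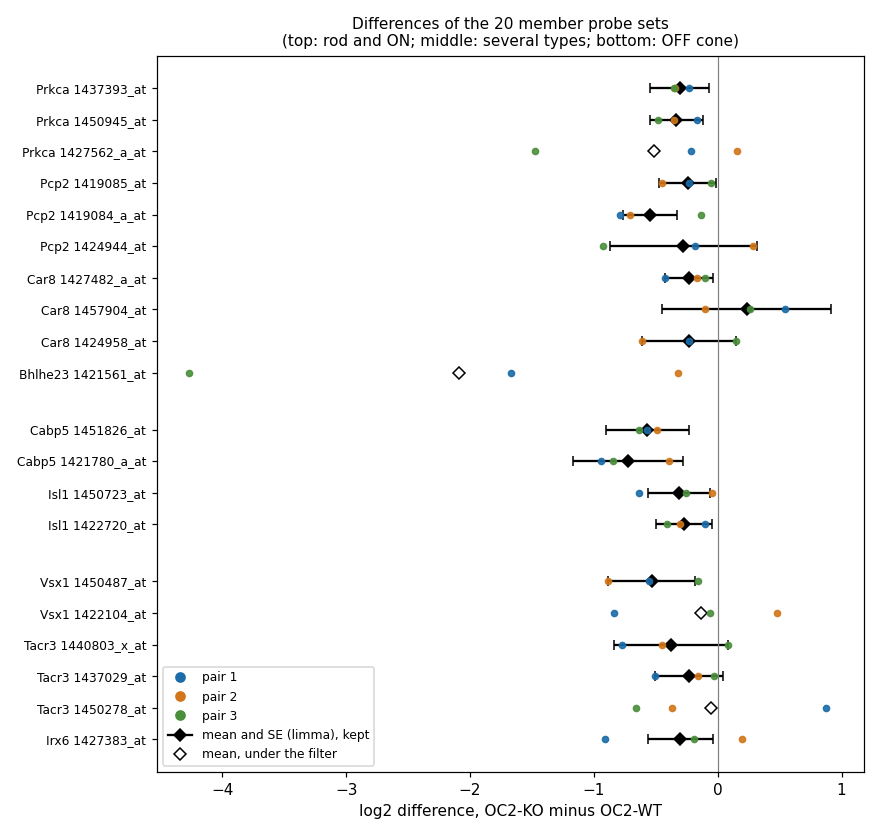
Log2 difference between OC2-KO and OC2-WT (horizontal axis) for each of the 20 member probe sets (vertical axis), with coloured points for the 3 pairs, filled diamonds and bars for the mean and limma SE of kept probe sets, and open diamonds for the mean of those under the filter. The kept probe sets lie between -0.73 and 0.23, with Car8 1457904_at as the only mean above 0.

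Pcp2, also called L7, is a modulator of Go signalling found in rod bipolar cells and in some ON cone bipolar cells. Its probe set 1419084_a_at had log2 intensities of 11.20, 11.25 and 11.49 in OC2-KO, against 11.98, 11.96 and 11.63 in OC2-WT. All OC2-KO arrays lay below all OC2-WT arrays, and the gap was narrow in pair 3. The difference was -0.55 ± 0.22 (SE), or 68.5% of the OC2-WT level, with an unadjusted limma p of 0.0386 and an adjusted p of 1.00, and an exact permutation test over arrays gave p = 0.1, the smallest it can give. This was the single member probe set with an unadjusted p under 0.05, where 0.326% of all probe sets were lower at that level. It lost this when OC2-KO replicate 1 or 2 or OC2-WT replicate 1 or 2 was left out, with differences of -0.66 to -0.48 over the fits that leave out 1 array. The brightest Pcp2 probe set, 1419085_at, had 12.82, 12.74 and 13.25 in OC2-KO and 13.05, 13.18 and 13.30 in OC2-WT. It was lower in every pair, at -0.23, -0.45 and -0.052 in pairs 1, 2 and 3, but the genotypes overlapped (difference -0.24 ± 0.23, SE). Leaving out OC2-KO replicate 2 gave -0.15 and leaving out OC2-KO replicate 3 gave -0.40. The dim 1424944_at, at a mean of 7.48 in OC2-KO and 7.75 in OC2-WT, was higher in OC2-KO in pair 2 and lower in the others, and its SE of 0.59 exceeded its difference of -0.28. The study picked Pcp2 and Car8 from these same arrays as lower, so their direction is not independent evidence.

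A start of Pcp2 is shown because its window holds a match to the motif of Vsx homeodomain factors, which act in bipolar cells. The window spans 250 bases before the start to 50 after it on the minus strand of chr8:3625233-3625532 (RefSeq, GRCm38.p6), the third of 4 annotated starts of Pcp2, and capitals mark TAATTAGC at position -101.
Pcp2: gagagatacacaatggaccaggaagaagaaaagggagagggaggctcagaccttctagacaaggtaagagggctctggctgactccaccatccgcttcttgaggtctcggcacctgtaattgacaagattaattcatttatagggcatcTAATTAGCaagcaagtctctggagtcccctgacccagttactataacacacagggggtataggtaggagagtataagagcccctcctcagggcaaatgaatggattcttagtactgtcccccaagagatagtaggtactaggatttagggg
This motif, searched on both strands, was found in 0.49% of 32851 promoter windows of the same length and in 1 of the 10 windows of members, 4 of which are overlapping windows of Pcp2. The Onecut core ATCAAT was found in 7.54% of all windows and in 0 of those 10. Matched letters are a description of the window and say nothing of binding, and 7 of the 9 genes had a window here.

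Car8 encodes a carbonic anhydrase-related protein without enzyme activity that binds the inositol trisphosphate receptor. The brightest of its probe sets, 1427482_a_at, read 10.99, 11.21 and 11.23 in OC2-KO and 11.42, 11.37 and 11.33 in OC2-WT, without overlap. The step was small, -0.23 ± 0.20 (SE), or 85.1% of the OC2-WT level, and the spread over OC2-WT arrays was 0.041 (SD, n = 3). Limma, which draws each spread towards that of all probe sets, gave an unadjusted p of 0.271, the methods' t-test gave 0.0433 unadjusted, and adjusted over all probe sets both gave 1.00. The other Car8 probe sets were near the filter and did not share a direction. Probe set 1424958_at differed by -0.23 ± 0.38 (SE), with pair 3 above 0, and 1457904_at differed by 0.23 ± 0.68 (SE), with pair 2 alone below 0.

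Prkca encodes protein kinase C alpha, the standard marker of rod bipolar cells. On 1437393_at it had log2 intensities of 12.04, 12.40 and 12.36 in OC2-KO and 12.27, 12.75 and 12.71 in OC2-WT. The arrays of pair 1 were the lowest of each genotype, and the pairs differed by -0.23, -0.34 and -0.35, which gave -0.31 ± 0.23 (SE, limma adjusted p = 1.00). On 1450945_at it had 9.61, 9.57 and 9.22 in OC2-KO and 9.77, 9.93 and 9.70 in OC2-WT, with no overlap and a difference of -0.34 ± 0.21 (SE). The probe sets stood at 80.7% and 79.3% of the OC2-WT level, with neither difference past the threshold. The first was -0.20 without OC2-KO replicate 1 and -0.46 without OC2-WT replicate 1, and the second was -0.21 without OC2-KO replicate 3. A weaker probe set, 1427562_a_at, did not pass the filter, and its mean difference of -0.51 came mostly from pair 3 (-1.48), where OC2-KO replicate 3 read 4.85.

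Bhlhe23, a basic helix-loop-helix factor needed for rod bipolar cells to mature, did not pass the filter. Its only probe set, 1421561_at, had 5.11, 6.75 and 1.73 in OC2-KO and 6.78, 7.07 and 5.99 in OC2-WT. It was lower in 3 of 3 pairs, with differences of -1.67, -0.32 and -4.27, but at these intensities the size is uncertain (exact permutation test, p = 0.2). The lowest value belonged to an array of pair 3, the pair with the large 3′ to 5′ difference of Actb, whose part in it was not tested.

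Cabp5, a calmodulin-like calcium-binding protein of rod bipolar cells and of certain ON and OFF cone bipolar types, had the largest difference among the kept member probe sets when all 6 arrays were used. On 1421780_a_at it read 9.14, 10.24 and 8.74 in OC2-KO and 10.08, 10.64 and 9.58 in OC2-WT. The genotypes overlapped, yet within each pair OC2-KO was the lower, with differences of -0.94, -0.39 and -0.84. The difference was -0.73 ± 0.45 (SE), or 60.4% of the OC2-WT level, with an unadjusted limma p of 0.146. Leaving out OC2-KO replicate 2 gave -1.16, OC2-WT replicate 1 gave -0.74, OC2-WT replicate 2 gave -0.46 and OC2-KO replicate 3 gave -0.41. In the last 3 of these fits other member probe sets differed by more. Among them were Pcp2 1419084_a_at without OC2-KO replicate 3 (-0.64) or OC2-WT replicate 2 (-0.49). The other Cabp5 probe set did so without OC2-KO replicate 3 (-0.58) or OC2-WT replicate 1 (-0.81). The brighter 1451826_at had 11.06, 11.99 and 11.58 in OC2-KO and 11.64, 12.49 and 12.21 in OC2-WT, with pair 1 lowest and pair 2 highest in each genotype. Its pair differences of -0.57, -0.49 and -0.63 lay close to their mean of -0.57, while the limma SE without the pairs was 0.33. Leaving out OC2-KO replicate 1 gave -0.33. With the replicate number as a block, the unadjusted limma p of these probe sets was 0.00807 and 0.0110, with an adjusted p of 0.999 for each.

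Isl1, a LIM-homeodomain factor of ON bipolar cells that is also made by ganglion and starburst amacrine cells, was lower in 3 of 3 pairs on both of its probe sets. On 1450723_at it had 11.28, 12.04 and 11.65 in OC2-KO and 11.92, 12.08 and 11.91 in OC2-WT. OC2-KO replicate 2 lay within the range of OC2-WT, and the difference of -0.32 ± 0.25 (SE) rested mostly on pair 1 (-0.64). Without OC2-KO replicate 1 it was -0.13, and without OC2-KO replicate 2 it was -0.50. On 1422720_at the readings were 10.17, 10.32 and 10.42 in OC2-KO and 10.27, 10.63 and 10.83 in OC2-WT, a difference of -0.27 ± 0.23 (SE). Leaving out OC2-WT replicate 3 gave -0.15, and leaving out OC2-WT replicate 1 gave -0.42.

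The windows of Cabp5 and Isl1 are shown because each holds TAATCC, the motif bound by Otx2 and Crx, homeodomain factors of photoreceptors and bipolar cells. That of Cabp5 is on the plus strand of chr7:13397905-13398204 and that of Isl1 on the minus strand of chr13:116309639-116309938 (RefSeq, GRCm38.p6, 250 bases before to 50 after an annotated start), and capitals mark the motif. The Cabp5 start shown lies inside the gene, which spans chr7:13385960-13408887, and not at the 5′ end of that span.
Cabp5: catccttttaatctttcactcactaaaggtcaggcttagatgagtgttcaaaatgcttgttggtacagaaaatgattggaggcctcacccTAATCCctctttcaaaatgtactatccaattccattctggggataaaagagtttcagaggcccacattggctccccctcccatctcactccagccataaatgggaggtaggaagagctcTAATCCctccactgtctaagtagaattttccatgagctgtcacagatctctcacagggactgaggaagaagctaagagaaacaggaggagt
Isl1: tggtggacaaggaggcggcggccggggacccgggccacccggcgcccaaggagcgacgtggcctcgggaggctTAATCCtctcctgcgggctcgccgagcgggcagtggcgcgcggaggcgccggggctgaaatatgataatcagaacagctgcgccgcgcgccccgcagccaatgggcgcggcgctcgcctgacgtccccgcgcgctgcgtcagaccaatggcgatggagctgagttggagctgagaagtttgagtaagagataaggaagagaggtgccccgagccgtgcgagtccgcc
In Cabp5 the motif began at positions -160 and -41 relative to the start and in Isl1 at -177. On either strand it was found in 7.06% of all windows and in 2 of the 10 windows of members.

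Vsx1, a homeodomain factor needed for OFF cone bipolar cells to acquire their late markers, passed the filter on 1450487_at alone. It had log2 intensities of 7.86, 8.13 and 7.59 in OC2-KO and 8.42, 9.01 and 7.75 in OC2-WT. OC2-KO was lower within every pair, with differences of -0.56, -0.89 and -0.16, although the OC2-WT array of pair 3 lay below 2 of the OC2-KO arrays. The difference was -0.53 ± 0.35 (SE), or 69.1% of the OC2-WT level, with an unadjusted limma p of 0.171, and of 0.0372 with the replicate block (adjusted p of 0.999). It was -0.22 once OC2-WT replicate 2 was left out and -0.86 once OC2-WT replicate 3 was. The other Vsx1 probe set, 1422104_at, averaged 3.41 in OC2-KO and 3.55 in OC2-WT, under the filter, and did not move in 1 direction over the pairs.

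Tacr3 encodes the neurokinin 3 receptor, a marker of OFF cone bipolar types, and Irx6 encodes an Iroquois homeodomain factor of such types. Tacr3 on 1440803_x_at had 9.42, 10.86 and 10.69 in OC2-KO and 10.19, 11.30 and 10.60 in OC2-WT. OC2-KO replicate 1 stood apart below the other 5 arrays, the difference was -0.38 ± 0.46 (SE), and without that array it was 0.073, in the opposite direction. On 1437029_at the pairs differed by -0.51, -0.16 and -0.033, and the mean of -0.23 ± 0.28 (SE) became -0.031 without the same array. Leaving out OC2-WT replicate 2 gave -0.075 and -0.079 on these probe sets, and leaving out OC2-KO replicate 2 gave -0.65 and -0.42. The dim Tacr3 probe set 1450278_at had a mean of 5.07 in OC2-KO and 5.12 in OC2-WT. Irx6 on 1427383_at had 7.50, 8.12 and 7.70 in OC2-KO and 8.41, 7.93 and 7.89 in OC2-WT, with pair 2 running the other way. Its difference of -0.30 ± 0.26 (SE) was -0.17 without OC2-KO replicate 1, and leaving out OC2-WT replicate 1 gave -0.13 and OC2-KO replicate 2 gave -0.47. On these probe sets of Tacr3 and Irx6, pair 1 had the largest difference of the 3 pairs.

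**Figure D2:**
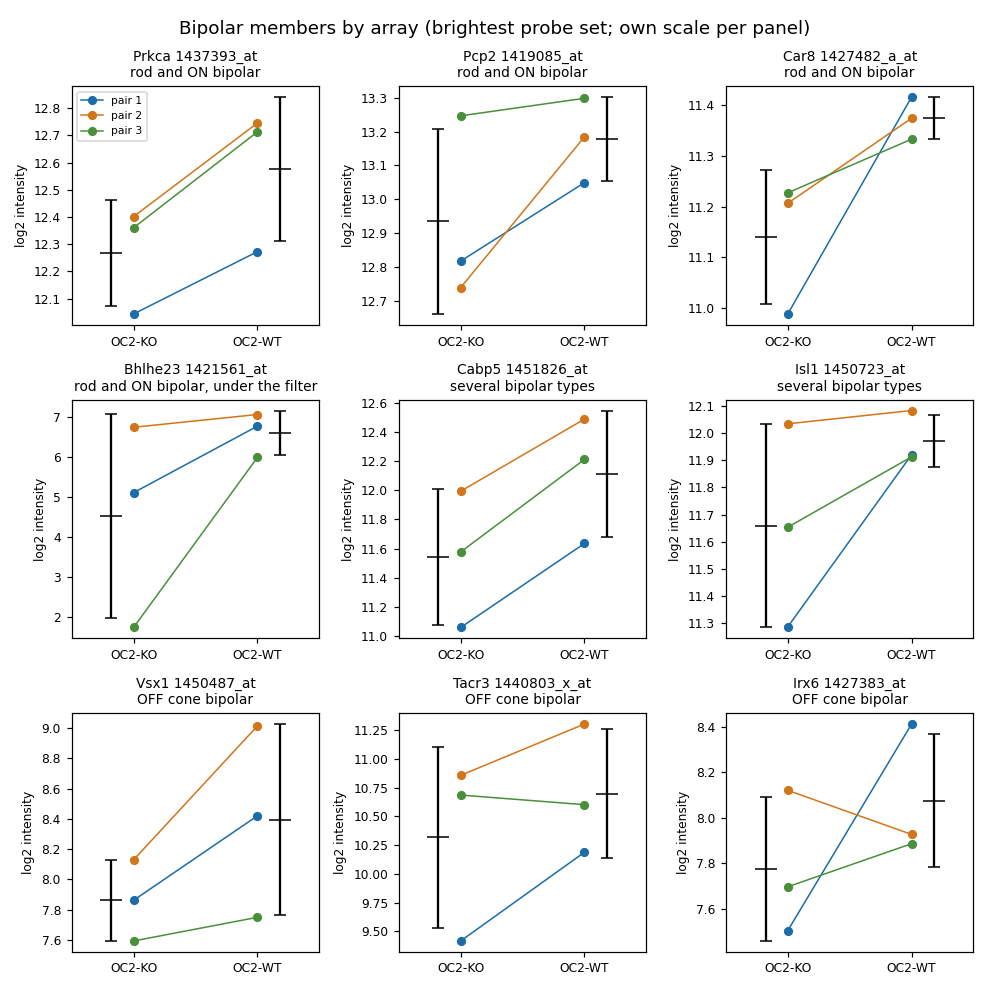
Log2 intensity of the brightest probe set of each of the 9 genes (vertical axis, its own scale in each panel) by genotype (horizontal axis), with lines joining arrays of a pair and mean ± SD over 3 arrays as black bars. Cabp5 has a mean of 11.54 in OC2-KO and 12.11 in OC2-WT with a like step in each pair, while Tacr3 and Irx6 each have a pair that runs the other way.

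With the replicate block, 4 of the 16 kept member probe sets had an unadjusted p under 0.05 and all were lower in OC2-KO, against 2.1% of all probe sets that were lower at this level, and 0 passed adjustment. They were both probe sets of Cabp5, 1419084_a_at of Pcp2 and 1450487_at of Vsx1. The methods' t-test gave 2 of 16, Pcp2 1419084_a_at and Car8 1427482_a_at, against 0.604% of all probe sets lower, again with 0 after adjustment. The study picked Pcp2 and Car8 from these same arrays with this test and threshold. This count of 2 was therefore fixed in advance and is not evidence about the members.

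By cell type, the median log2 difference was -0.26 over 8 kept probe sets of the rod and ON bipolar genes, -0.44 over 4 of Cabp5 and Isl1, and -0.34 over 4 of the OFF cone bipolar genes. Without OC2-KO replicate 1 these medians were -0.17, -0.27 and -0.099. The rod and ON median was -0.40 without OC2-WT replicate 1, and the OFF cone median was -0.15 when OC2-WT replicate 2 was left out and -0.56 when OC2-KO replicate 2 was. The OFF cone median was -0.67, -0.30 and -0.095 in pairs 1, 2 and 3, whereas that of Cabp5 and Isl1 was -0.61, -0.35 and -0.52. No test of a difference between the types was made. Each array was also read against the mean of each probe set over all 6 arrays. On that scale OC2-KO replicate 1 was the lowest array of each type, at -0.32 for rod and ON, -0.56 for Cabp5 and Isl1 and -0.47 for OFF cone genes, and it was the lowest of the 6 arrays for 11 of the 16 probe sets. The OC2-WT replicate 2 array was the highest of each type, at 0.35, 0.46 and 0.61. The median of all probe sets moved by no more than 0.064 on any array.

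**Figure D3:**
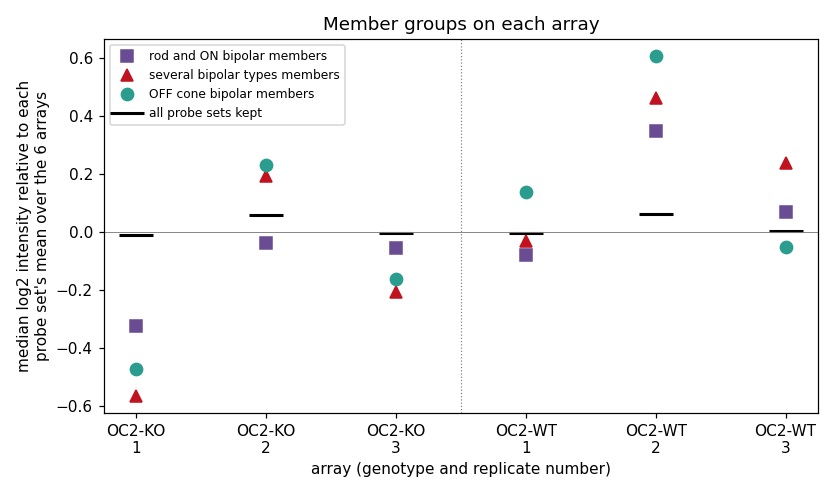
Median log2 intensity of the member probe sets of each type relative to each probe set's mean over the 6 arrays (vertical axis), by array (horizontal axis), with black dashes for all 21176 probe sets kept. Every type is lowest on OC2-KO replicate 1, between -0.56 and -0.32, and highest on OC2-WT replicate 2, between 0.35 and 0.61.

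Other bipolar genes were read from a list of 24, of which 18 had a kept probe set. Among them the orphan receptor gene Gpr179 averaged 5.44 in OC2-KO and 7.12 in OC2-WT, so that it passed through OC2-WT alone and is left out of the counts below. Its difference was -1.67 ± 0.73 (SE), with an unadjusted limma p of 0.0538, and of 0.0397 with the replicate block. Of the other 17 genes, 14 were lower in OC2-KO and 5 were lower in 3 of 3 pairs, with a median log2 difference of -0.25, and 0 had an unadjusted limma p under 0.05 with or without the block. Among the other ON bipolar genes 7 of 8 were lower, including the nyctalopin gene Nyx (-0.38), the Go subunit gene Gnao1 (-0.25) and the regulator of G protein signalling Rgs7 (-0.26). Gnb5 (-0.11) and Gng13 (-0.060) were lower by little, and Trpm1 was higher (0.075). Among OFF cone genes 5 of 5 were lower, among them the protocadherin gene Pcdh17 (-0.34), the kainate receptor auxiliary gene Neto1 (-0.29), the kainate receptor gene Grik1 (-0.84 ± 1.33, SE) and Nnat (-0.28). The genes shared by the bipolar class were divided, with Scgn and Neurod4 at -0.25 and -0.22 and the factors Prdm8 and Otx2 at 0.094 and 0.059. Over all 10608 genes with both means above 7, 51.3% were lower, 11.7% were lower in 3 of 3 pairs and the median was -0.0049, each gene taken by its brightest probe set.

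Markers of other retinal cells were read in the same way. Of 6 horizontal cell genes Onecut1 passed through OC2-WT alone, with a mean of 5.56 in OC2-KO and 7.36 in OC2-WT. The other 5 had lower means with a median of -0.42, and the summed log2 level of all 6 was 13.50 to 13.89 in OC2-KO and 14.09 to 14.29 in OC2-WT. Of these Calb1 and Septin4, which the study picked from these arrays, had an unadjusted limma p under 0.05, and no marker was at 0. All 7 cone genes had higher means in OC2-KO, with a median of 0.29. Their summed level was 15.46 to 16.17 in OC2-KO and 15.36 to 16.03 in OC2-WT. Of the 7 cone genes 5 were higher in 3 of 3 pairs, against 1205 of all 11065 kept genes. Gngt2 and Pde6c had an unadjusted limma p under 0.05. At that level 81 of all 11065 kept genes were higher in OC2-KO and 28 were lower, with 0 past adjustment. All 6 rod genes had higher means in OC2-KO, with a median of 0.064, and their summed level was 16.78 to 18.32 in OC2-KO and 16.91 to 18.58 in OC2-WT. Yet 0 of these rod genes were higher in 3 of 3 pairs, and Sag, Pde6b, Gnat1, Nrl and Pde6a were lower in 2 of 3. Amacrine, ganglion and Müller glia lists had medians of -0.085, -0.012 and -0.029 over genes with both means above 7. Of these genes 5 of 7, 3 of 6 and 4 of 8 were lower in OC2-KO. The amacrine gene Tfap2b differed by -0.46 and was lower in 3 of 3 pairs. Its unadjusted limma p was 0.150, and 0.0296 with the replicate block. Of 6 pigment epithelium genes 3 passed the filter, with a summed level of 13.59 to 15.90 in OC2-KO and 14.34 to 16.19 in OC2-WT. Their median was -0.39, with Rpe65 at -0.66, Ttr at -0.39 and Pmel at 0.32. Rpe65 had a log2 intensity of 9.15 on OC2-KO replicate 1 and of 10.65 to 11.14 on the other 5 arrays. The part of these other cells in the values of the members was not tested.

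**Figure D4:**
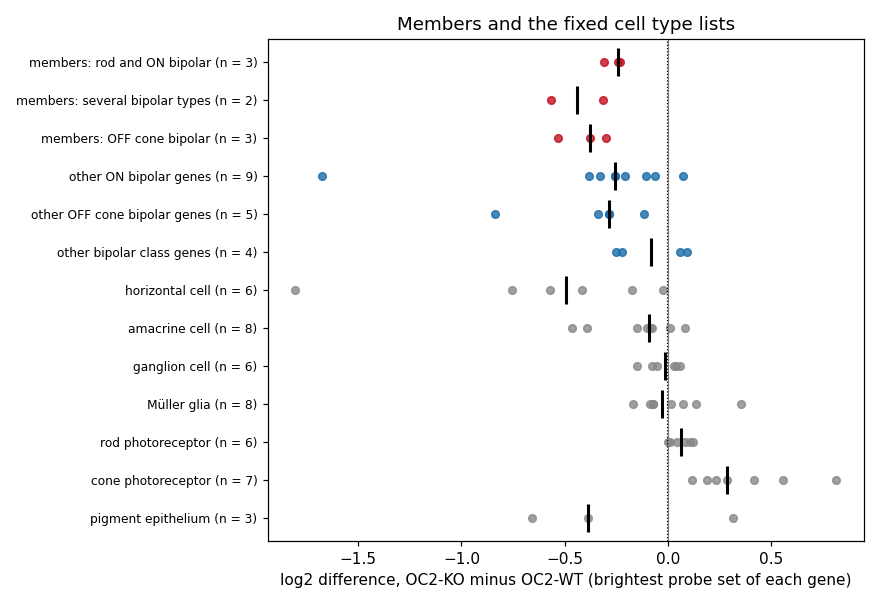
Log2 difference between OC2-KO and OC2-WT (horizontal axis) for the brightest kept probe set of each gene, by list (vertical axis), with red points for the members, blue for other bipolar genes, grey for other cells, black ticks for list medians and a dotted line for the median of all genes, and with Gpr179, Onecut1 and the amacrine gene Th, which passed through OC2-WT alone, included. The medians of the 3 member groups lie between -0.44 and -0.24 and that of the cone list at 0.29.

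The profiles nearest to those of the members were sought among 18697 kept probe sets of other named genes, by the root mean square difference over the 6 arrays after each profile was centred on its own mean. Cabp5 was nearest to Gdap1, a mitochondrial fission factor gene (0.097), Prkca to Filip1l (0.029), Pcp2 to Fbxo36 (0.062) and Car8 to Scrn1 (0.033). Isl1 was nearest to Pck2, the mitochondrial phosphoenolpyruvate carboxykinase gene (0.029), Vsx1 to the neuronal zinc finger factor gene Myt1l (0.15), Tacr3 to Samd9l (0.076) and Irx6 to the retinol saturase gene Retsat (0.072), all on the log2 scale. None of these is another bipolar gene of the list, and 6 arrays that vary in pairs give little to tell near profiles apart.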

How the data were processed

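Per the study's methods and the labels, the authors hybridised amplified, biotin-labelled total RNA to Affymetrix Mouse Genome arrays and applied MAS5 background adjustment and scaling (no version stated). The deposited table holds 45101 linear intensities for each of 6 arrays. Neither scans nor detection calls were used here, and scaling hides a difference shared by all genes. Gene symbols came from the platform annotation, 64 control probe sets were left out, and probe sets annotated to more than 1 gene were not named. All 9 genes matched a RefSeq table of GRCm38.p6 by gene number.

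The log2 of each intensity was modelled in limma (version 3.58.1, lmFit and eBayes, under R 4.3.3), two-sided, without trend or block, on 21176 probe sets where the mean of either genotype exceeded 7, with 4 residual degrees of freedom and Benjamini-Hochberg adjustment. The filter and the unadjusted threshold of 0.05 follow the methods. Array number limits the precision. Fits were tested on simulated data in which each array was drawn independently, without the pairing seen here. The fit with the replicate block had 2 residual degrees of freedom.

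The replicate numbers in the titles were checked as pairs: array deviations around their genotype's mean had correlations of 0.576, 0.590 and 0.585 for numbers 1, 2 and 3, and of -0.429 to -0.135 across numbers, so the numbers pair the arrays, a pairing that rests on these correlations. The members, gene lists and alternatives were chosen with earlier results of these data known. Every member probe set is named, and of other bipolar lists up to 4 genes by smallest p, with Trpm1, Gnb5 and Gng13 added. Alternatives were quantile normalization, median centring, no filter, a filter at 8, a floor at 6, an intensity trend, array weights, the replicate block, leaving out each array or pair 3, and the methods' t-test.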

Additional observations from a re-analysis of the deposited data

How the results depend on the processing

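Adjusted calls stayed at 0 under all 16 alternatives, where adjusted p-values of members ran from 0.998 to 1.00. Of 253 values of kept member probe sets under the alternatives, 244 kept their direction. The median member difference was -0.45 to -0.18 with 1 array left out. Probe sets with an unadjusted p under 0.05 numbered 209, against 1144 without a filter, 127 with a filter at 8, 436 with array weights, 887 with the replicate block (limma) and 209 to 560 with 1 array left out, the highest without OC2-KO replicate 2. Member probe sets numbered 1, against 0 with median centring or no filter, 3 with array weights, 4 with the replicate block, 2 by the methods' t-test and 0 to 2 with 1 array left out. The Pcp2 call was lost without OC2-KO replicate 1 or 2 or without OC2-WT replicate 1 or 2. The replicate block changed no adjusted call.

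The sign changed for 4 probe sets. Pcp2 1424944_at was 0.049 without pair 3 and -0.80 to 0.20 with 1 array left out, Car8 1457904_at was -0.55 with array weights and -0.28 to 0.92 with 1 array left out, and with 1 array left out Car8 1424958_at was -0.45 to 0.14 and Tacr3 1440803_x_at -0.65 to 0.073. The cause was not tested. The medians by bipolar type without each array, and the counts over list genes with both means above 7, were added after seeing the data. The 3 arrays per genotype limit the precision.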
